A study of Mus musculus with 6 samples.

Results

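Chemokines are small secreted or membrane-bound proteins that direct the movement of cells, and chemokine receptors are the cell-surface proteins that read them. The genes of this family were described in colon tumours of Trim21 -/- mice (3 samples) and of wild-type mice (3 samples), all of which had been treated with AOM/DSS, that is azoxymethane, a carcinogen, and dextran sulfate sodium, which injures the colon lining. Members were chosen by symbol: every row of the count table named Ccl, Cxcl, Ccr, Cxcr or Ackr with a number, and Xcl1, Cx3cl1, Xcr1 and Cx3cr1. This gave 64 of 26214 rows, namely 40 ligand rows, 18 signalling receptors, 4 atypical receptors and 2 rows named as pseudogenes by their symbols. The groups are "Trim21 knock out" (Trim21 -/-, AOM/DSS) and wild type (Trim21 +/+, AOM/DSS), which share the tumour protocol. The labels name no strain, age, sex or time after treatment, and no cell-type-restricted promoter, so it is not known here which cells lacked Trim21 in design. Each label calls its sample a biological replicate, and none says whether a sample was 1 tumour or a pool, so a p-value reflects only how these 6 samples vary, which may be technical.

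The family is named after the spacing of its first cysteines: CC, CXC, CX3C and C ligands bind receptors of the matching name, which signal through inhibitory G proteins and arrestins. Inflammatory chemokines are induced by microbial products and cytokines and call neutrophils, monocytes and effector T cells into tissue, while homeostatic ones such as Ccl21, Cxcl12 and Cxcl13 are made by stroma and endothelium and organise lymphoid tissue. In the colon, epithelial cells add chemokines of their own, such as Ccl28 for antibody-secreting cells, and atypical receptors bind chemokines without classical signalling and remove them.

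Libraries held 17937821 to 19987295 counts in the knockout and 27085599 to 29742757 in the wild type, so 3 reads, the limit that a count of 0 allows, correspond to 0.101 to 0.165 CPM. CPM is the count per 1000000 library reads after TMM scaling, a correction for differences in composition. Trim21 itself, a ubiquitin ligase and antibody receptor, gave 12.1, 18.9 and 12.8 CPM in knockout replicates 1 to 3 and 29.8, 20.3 and 19.5 CPM in wild-type replicates 1 to 3. Its values were lower in each knockout library but not absent, with a log2 fold change of -0.67 and an adjusted p of 0.418 in edgeR's quasi-likelihood test, so the libraries labelled knockout still contained Trim21 reads. The labels do not say which part of the gene was removed. All 8 epithelial markers (Epcam, Krt8 and others) were detected, and their summed level was 6871 to 7581 CPM over the 6 libraries. In bulk tissue, fewer cells of a type and less RNA per cell cannot be told apart.

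Of the 64 rows, 61 had at least 1 read and 53 passed the filter on low counts. The 8 rows with reads that were not tested are Ccl1, Ccl4, Ccl19-ps1, Ccr8, Cxcl15, Cxcl17, Cxcr1 and Xcl1, and the 3 rows at 0 are Ccl19, Ccl21d and Ccl26. The family's levels were mostly modest: 45 rows had a mean of at least 1 CPM and 23 a mean of at least 10 CPM. Among the tested rows, 42 of 53 (79.2%) had a log2 fold change above 0 in the knockout, against 47.9% of all 16281 genes tested. Their median log2 fold change was 0.42, against -0.01 over all genes. With no filter on low counts, 45 of 61 rows were above 0. No member passed an adjusted p of 0.05 in edgeR's quasi-likelihood test, where 0% of all genes passed, and the smallest adjusted p was 0.322 among members and 0.0646 among all genes. At an unadjusted p under 0.05 there were 8 members, 15.1% of those tested, against 10.7% of all genes. Of these, 7 had higher values in the knockout (13.2%, against 6.63% of all genes) and 1 had lower values (1.89%, against 4.12%). The groups did not overlap for 8 members, 15.1%, against 17.9% of all genes. All 8 were higher in the knockout (15.1%, against 9.43%), and 0 were lower, against 8.47%. Ccl21a, Ccl21b and Ccl21c, near-identical copies of 1 gene, are counted separately in all of these shares and are among the higher members in each. With these rows summed into 1, 40 of 51 tested members were above 0, with a median of 0.41. Then 6 of the 51 had an unadjusted p under 0.05 in edgeR. The share of members past the unadjusted threshold and the share without overlap are thus near those of all genes, while the direction leaned to the knockout side.

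**Figure D1:**
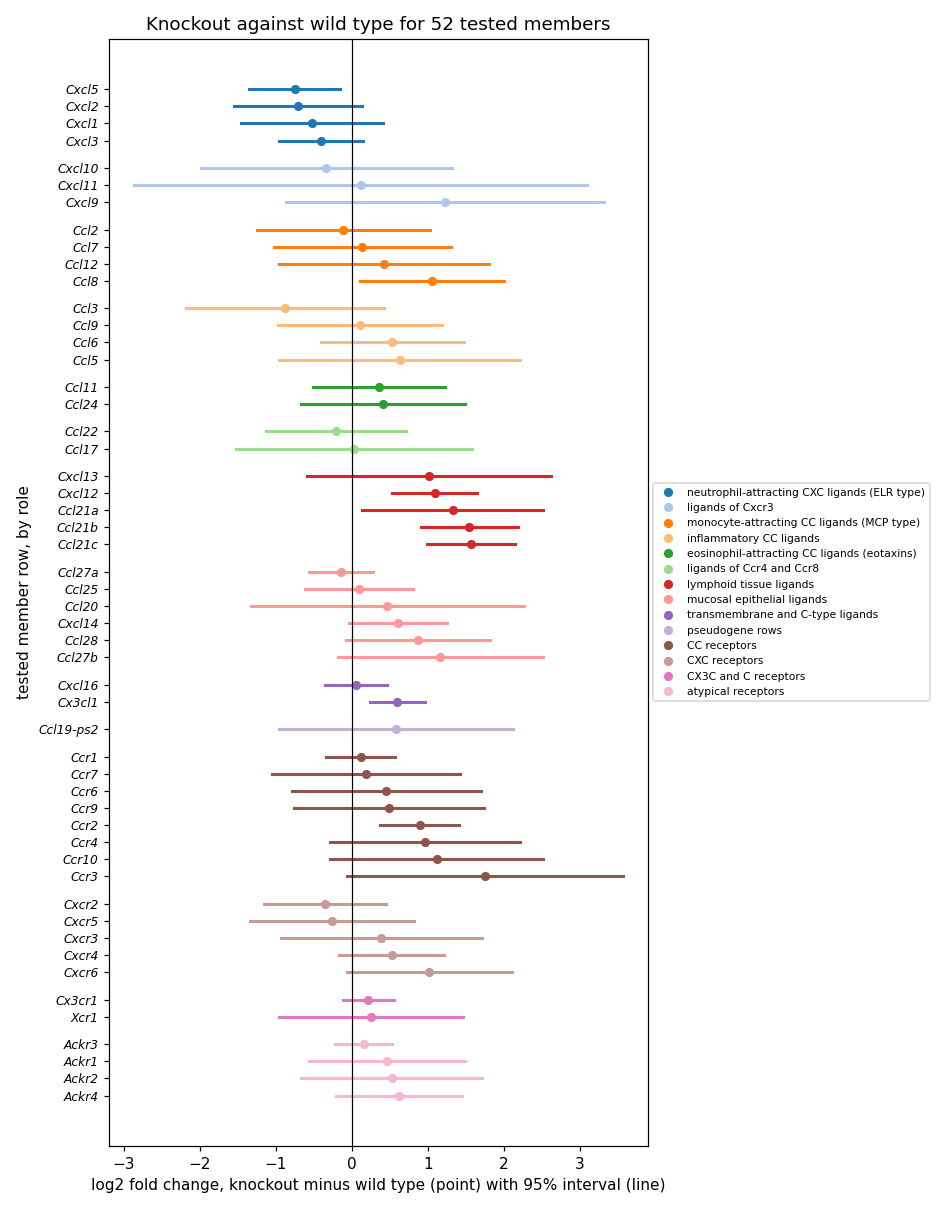
Each point is the log2 fold change of 1 tested member, knockout minus wild type, and the line is its 95% interval; members are grouped by role and coloured by it. Of 52 intervals drawn, 44 include 0, and 26 points lie within 0.5 of 0. The neutrophil-attracting ligands all lie left of 0, and the CC and atypical receptors drawn all lie right of it.

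The size of this lean depended on 2 libraries, since the median over members dropped to 0.24 on leaving out knockout replicate 3, and to 0.28 on leaving out wild-type replicate 1. DESeq2, a different count test, called 5 of its 61 tested members (8.2%) and 334 of its 20767 genes (1.61%) at an adjusted p under 0.05. All 5 members had higher values in the knockout (against 1.16% of all genes), and 2 of them, Ccl21b and Ccl21c, are 1 measurement. They are described below beside their values.

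Lymphoid tissue ligands had the largest median log2 fold change of the ligand roles. These ligands draw lymphocytes and dendritic cells to lymph nodes and follicles: Ccl21 and Ccl19 bind Ccr7, Cxcl12 binds Cxcr4 and Ackr3, and Cxcl13 binds Cxcr5. All 5 tested rows had higher means in the knockout, with a median log2 fold change of 1.32. Of the 5, 4 had groups that did not overlap, against 9.43% of all genes that were higher without overlap. Of the 5 rows, however, 3 are near-identical copies of 1 gene, Ccl21.

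Mouse Ccl21 exists in several copies on chromosome 4, and their sequences are shown because they decide how far the rows can be read apart. In the GENCODE M21 transcripts of GRCm38, the 402 coding bases of Ccl21a (chr4:42772860-42773993, minus strand) and Ccl21b (chr4:42255767-42256432, plus strand) are 99.5% identical. They differ at T84A and C194T (the base of Ccl21a first, positions counted from 1 at the first base of the start codon). Each line below gives 60 coding bases, 5′ to 3′, with the differing base in capitals.
Ccl21a, bases 54 to 113: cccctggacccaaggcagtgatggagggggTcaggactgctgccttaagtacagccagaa
Ccl21b, bases 54 to 113: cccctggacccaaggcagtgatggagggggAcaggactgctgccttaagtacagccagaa
Ccl21a, bases 164 to 223: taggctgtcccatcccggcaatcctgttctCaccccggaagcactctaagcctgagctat
Ccl21b, bases 164 to 223: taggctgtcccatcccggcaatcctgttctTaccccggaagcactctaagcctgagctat
The coding bases of Gm10591, a row whose counts equal those of Ccl21c in all 6 libraries, are 100% identical to those of Ccl21b. The ratio of Ccl21c to Ccl21b counts lay between 3.885 and 4.015 in the 6 libraries, whereas the ratio of Ccl21c to Ccl21a counts ranged from 1.568 to 3.862. Ccl21b and Ccl21c therefore count as 1 measurement, and the counting of reads shared with Ccl21a is uncertain.

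Ccl21c was measured at 93.4, 69.8 and 92.0 CPM in knockout replicates 1 to 3 and 21.6, 40.0 and 24.9 CPM in wild-type replicates 1 to 3. Every knockout library lay above every wild-type library, with means of 85.1 ± 13.3 and 28.8 ± 9.78 CPM (SD, n = 3 each). The log2 fold change was 1.56 ± 0.25 (SE; 95% interval 0.98 to 2.14), which is 2.95-fold, with an adjusted p of 0.322 by edgeR and 7.47e-07 by DESeq2. The Ccl21b row, 1 measurement with Ccl21c, had the same pattern at lower counts, 23.3, 17.5 and 23.0 CPM in the knockout and 5.40, 10.3 and 6.23 CPM in the wild type, with a log2 fold change of 1.54 ± 0.27 and an adjusted p of 0.322 by edgeR and 5.06e-05 by DESeq2. How reads were divided between the 2 rows is not known, so the lower counts do not show a lower level of Ccl21b. Ccl21a gave 41.1, 27.0 and 35.7 CPM in the knockout and 5.60, 25.5 and 10.3 CPM in the wild type. Its groups nearly touched, since wild-type replicate 2 was close to knockout replicate 2, and its log2 fold change of 1.32 ± 0.50 (adjusted p = 0.431 by edgeR) moved to 2.12 without wild-type replicate 2. When Ccl21a, Ccl21b and Ccl21c were summed into 1 row, the log2 fold change was 1.50 with an adjusted p of 0.332 by edgeR. Then 6 of 51 members had an unadjusted p under 0.05, against 8 of 53 (15.1%) before. Reads counted in more than 1 of these rows would enter the sum more than once. The sum left out LOC100041504, a row whose counts were 0.913 to 0.988 times those of Ccl21c, with a log2 fold change of 1.58 ± 0.26.

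Cxcl12, the ligand of Cxcr4 made by stromal cells (chr6:117168535-117181367, plus strand), was measured at 105, 74.0 and 90.4 CPM in knockout replicates 1 to 3 and 29.6, 55.6 and 41.6 CPM in wild-type replicates 1 to 3. The groups did not overlap, and the lowest value was again in wild-type replicate 1. Means were 89.9 ± 15.6 and 42.3 ± 13.0 CPM (SD, n = 3 each), the log2 fold change was 1.09 ± 0.24 (95% interval 0.53 to 1.65), and the adjusted p was 0.333 by edgeR and 0.00209 by DESeq2. Its receptor Cxcr4, found on most leukocytes, gave 10.3, 17.4 and 20.1 CPM in the knockout and 8.45, 10.6 and 14.1 CPM in the wild type, so the groups overlapped (log2 fold change 0.52 ± 0.29). Ackr3, the atypical receptor that takes up Cxcl12, ranged over 20.2 to 30.5 CPM (log2 fold change 0.15).

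Cxcl13, the ligand that draws B cells to follicles, gave 13.8, 12.2 and 20.5 CPM in the knockout and 2.28, 3.96 and 16.8 CPM in the wild type. Wild-type replicate 3 stood within the knockout range, and the log2 fold change of 1.02 ± 0.68 became 2.31 without that library. The B cell markers (Cd79a, Ms4a1 and others, 8 of 8 with reads) summed to 11.4, 24.1 and 39.8 CPM in the knockout and 3.42, 19.3 and 29.3 CPM in the wild type, with wild-type replicate 3 likewise above 2 of the 3 knockout libraries. Its receptor Cxcr5 gave 1.88, 1.81 and 2.48 CPM in the knockout and 1.31, 2.03 and 4.08 CPM in the wild type (log2 fold change -0.26 ± 0.46), with its highest value in wild-type replicate 3. Ccr7, the Ccl21 receptor of dendritic cells and naive T cells, gave 1.64, 3.46 and 2.07 CPM in the knockout and 0.939, 2.00 and 3.37 CPM in the wild type, with overlapping groups and a log2 fold change of 0.18 ± 0.52. Ccl19, its other ligand, was listed at 0 reads in every library, and so was the Ccl21d row. The Ccl19 pseudogene row Ccl19-ps2 shares its counts with Gm21104 and had a log2 fold change of 0.58 ± 0.66. The other pseudogene row, Ccl19-ps1, was not tested, with 0, 0 and 2 reads in the knockout and 4, 16 and 12 in the wild type.

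Levels of stromal and vascular markers stand beside these ligands as follows. The smooth muscle list (Acta2, Myh11, Des and others, 8 of 8 with reads) summed to 1456, 893 and 1025 CPM in the knockout and 329, 816 and 582 CPM in the wild type, so its groups did not overlap either. The 6 libraries stand in the same order for this sum as for 5 of the 53 tested members, Ccl21a, Ccl21b, Ccl21c, Cxcl12 and Cx3cl1, an order that 1.03% of all genes tested share. Of these 5 rows, 3 are Ccl21 copies. In this order every wild-type library lies below every knockout library, which holds for 9.43% of all genes tested. Each other marker list shared its order with 0 or 1 tested members. The smooth muscle comparison was chosen after the values were seen. The fibroblast list (Col1a1, Dcn and others) summed to 1607, 2321 and 2295 CPM in the knockout. It summed to 1716, 1655 and 1125 CPM in the wild type, and its groups overlapped. All 8 of its genes were above 0, with a median of 0.39. At an unadjusted p under 0.05, 2 were higher and 0 lower, and 1 was higher without overlap. The blood endothelium list (Pecam1, Kdr and others) summed to 236, 292 and 324 CPM in the knockout. Its wild-type sums were 213, 225 and 263 CPM, so its groups overlapped. Of its 8 genes, 7 were above 0, 3 were higher and 0 lower at that threshold, and 3 were higher without overlap. Of the 6 lymphatic markers other than Ccl21a, 5 had values above 0, 2 had an unadjusted p under 0.05 (Mmrn1 and Flt4) and 3 did not overlap between groups, all higher in the knockout. Over all genes tested, 47.9% were above 0, 6.63% had higher values at that threshold and 9.43% were higher without overlap. Mmrn1 gave 24.6, 24.1 and 46.1 CPM in the knockout and 6.07, 22.5 and 11.5 CPM in the wild type, and Flt4 gave 10.2, 9.66 and 14.9 CPM in the knockout and 5.64, 9.48 and 6.49 CPM in the wild type. Their log2 fold changes were 1.24 ± 0.48 and 0.68 ± 0.27. Lyve1 gave 21.5, 19.0 and 25.8 CPM in the knockout and 6.44, 20.5 and 15.7 CPM in the wild type. Reln, another, gave 12.7, 8.29 and 11.9 CPM in the knockout and 1.14, 8.23 and 4.37 CPM in the wild type. All of these were lowest in wild-type replicate 1. Prox1, a marker of lymphatic endothelium that also occurs in epithelium, gave 561, 596 and 373 CPM in the knockout and 1137, 734 and 540.2 CPM in the wild type and held 89.6% of that list's sum. Without Prox1 the list summed to 87.0, 80.0 and 122 CPM in the knockout and 40.6, 78.5 and 50.8 CPM in the wild type, so its groups did not overlap. The part of these cell types in the ligand differences was not tested.

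**Figure D2:**
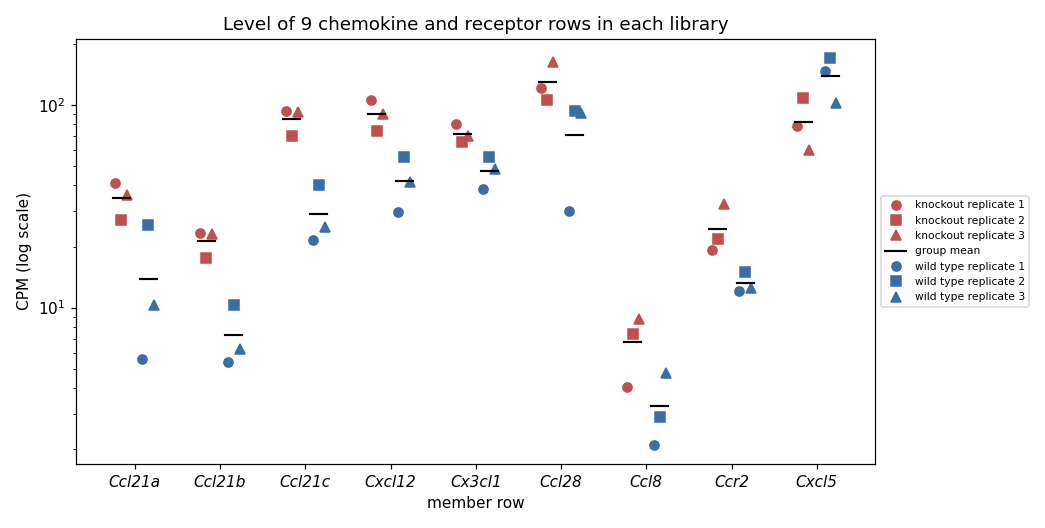
CPM on a log scale of the 9 members with a mean of at least 1 CPM whose groups did not overlap or whose unadjusted p was under 0.05; points are libraries, red for knockout and blue for wild type, and black lines are group means. The 3 Ccl21 rows, Cxcl12, Cx3cl1, Ccl28 and Ccr2 have every knockout point above every wild-type point, and Ccl8 and Cxcl5 overlap.

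The neutrophil-attracting ligands had their values on the other side of 0. Cxcl1, Cxcl2, Cxcl3 and Cxcl5 carry the ELR motif that binds Cxcr2 on neutrophils, and all 4 had lower means in the knockout, with a median log2 fold change of -0.62. All 4 lie with Cxcl15 within 146.6 kb of chromosome 5 (chr5:90759360-90905938), so they are neighbours as well as relatives.

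Cxcl5, the most abundant of them, was measured at 78.3, 109 and 60.1 CPM in knockout replicates 1 to 3 and 146, 169.6 and 101 CPM in wild-type replicates 1 to 3. Knockout replicate 2 lay above wild-type replicate 3, so the groups overlapped, with means of 82.3 ± 24.4 and 139 ± 34.6 CPM (SD, n = 3 each). The log2 fold change was -0.76 ± 0.26 (95% interval -1.36 to -0.15), with an adjusted p of 0.397 by edgeR. Cxcl2 gave 9.27, 14.6 and 18.2 CPM in the knockout and 17.8, 34.8 and 16.2 CPM in the wild type, with a log2 fold change of -0.71 ± 0.36. Its highest value was that of wild-type replicate 2, without which the log2 fold change was -0.28. Cxcl1 gave 28.3, 31.7 and 35.6 CPM in the knockout and 25.3, 79.2 and 33.3 CPM in the wild type, and its lower mean in the knockout rested on the same library: the log2 fold change was -0.53 ± 0.40 with it and 0.12 without it. Cxcl3 ranged over 5.66 to 10.4 CPM with a log2 fold change of -0.40 ± 0.23.

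Promoters of Cxcl1, Cxcl2 and Cxcl3 are shown because they share a short motif that few promoters hold. The sequences are the 250 bases before the RefSeq start (GRCm38.p6), 5′ to 3′ on the gene's strand, with matches to an NF-kB motif (GGG, any 2 bases, then TTTCC, on either strand) in capitals.
Cxcl1, chr5:90890995-90891244, plus strand: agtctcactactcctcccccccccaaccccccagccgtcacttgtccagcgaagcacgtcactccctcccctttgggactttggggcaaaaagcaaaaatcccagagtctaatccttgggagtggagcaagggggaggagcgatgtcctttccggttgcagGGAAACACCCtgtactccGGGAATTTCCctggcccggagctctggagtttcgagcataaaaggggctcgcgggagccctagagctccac
Cxcl2, chr5:90903649-90903898, plus strand: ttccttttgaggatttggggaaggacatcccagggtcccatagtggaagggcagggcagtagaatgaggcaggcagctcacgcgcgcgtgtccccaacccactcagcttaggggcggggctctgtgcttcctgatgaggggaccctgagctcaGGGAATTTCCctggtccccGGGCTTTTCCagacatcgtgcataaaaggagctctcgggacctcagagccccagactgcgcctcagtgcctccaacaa
Cxcl3, chr5:90785851-90786100, plus strand: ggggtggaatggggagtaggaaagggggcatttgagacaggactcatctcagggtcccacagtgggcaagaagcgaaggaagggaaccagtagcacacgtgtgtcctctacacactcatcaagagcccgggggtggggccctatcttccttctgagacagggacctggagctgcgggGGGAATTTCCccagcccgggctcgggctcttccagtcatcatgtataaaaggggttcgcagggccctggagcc
Matches begin 89 and 71 bases before the start in Cxcl1, 97 and 78 bases before it in Cxcl2 and 73 bases before it in Cxcl3. Of all 32851 RefSeq mouse promoters of this length, 464 (1.41%) hold a match. Among members, 46 of 64 rows had an entry, with 53 promoters in all, and 6 of these held a match, those of Cxcl1, Cxcl2, Cxcl3, Ccl20, Ccl9 and Ccr3. Cxcl5 had no entry, so its promoter was not examined. A match is a description of the letters and says nothing of binding in these tumours.

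Cxcr2, the receptor for these ligands, gave 6.84, 12.9 and 19.4 CPM in knockout replicates 1 to 3 and 17.7, 17.5 and 14.9 CPM in wild-type replicates 1 to 3. The groups overlapped, with a log2 fold change of -0.36 ± 0.34. Cxcr1, which is related, had too few reads to test, 0, 5 and 8 reads in the knockout and 9, 24 and 1 in the wild type. The neutrophil list (S100a8, S100a9, Ly6g and others, 13 genes) summed to 333, 343 and 477 CPM in the knockout and 339, 524 and 270.0 CPM in the wild type, overlapping between groups. Cd177 held 44% of this sum, and without it the list gave 136, 197 and 297 CPM in the knockout and 254, 285 and 109 CPM in the wild type. The highest library is thus wild-type replicate 2, as for Cxcl1, Cxcl2 and Cxcl5, with Cd177 and knockout replicate 3 without it. Of the 13 genes, 5 had values above 0 (against 47.9% of all genes). At an unadjusted p under 0.05, 1 was higher, Ly6g (against 6.63% of all genes), and 0 were lower (against 4.12%). Ly6g gave 48.7, 60.6 and 60.8 CPM in the knockout and 28.7, 43.7 and 35.1 CPM in the wild type, higher in each knockout library (log2 fold change 0.66 ± 0.18, adjusted p = 0.345 by edgeR). The part of neutrophil RNA in these values was not tested.

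Cxcl15 and Cxcl17 were too low to test but stood out in 1 library, and are named after their values were seen. Cxcl15 had 4, 4 and 4 reads in the knockout and 8, 5 and 77 in the wild type. Cxcl17, a mucosal chemokine-like protein, had 6, 2 and 1 reads in the knockout and 6, 1 and 101 in the wild type. In both, most reads were in wild-type replicate 3.

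Ligands of Cxcr3 are the interferon-induced chemokines of effector T and natural killer cells. For Cxcl9 and Cxcl10 the spread within a group exceeded the difference between groups. Cxcl9 gave 0.893, 13.8 and 26.7 CPM in knockout replicates 1 to 3 and 6.67, 6.20 and 4.89 CPM in wild-type replicates 1 to 3, so the knockout held both the lowest and the highest value, with a log2 fold change of 1.22 ± 0.89 that was 0.31 without knockout replicate 3. Cxcl10 gave 2.53, 11.9 and 10.8 CPM in the knockout and 19.7, 8.23 and 3.78 CPM in the wild type, highest in wild-type replicate 1 and lowest in knockout replicate 1, with a log2 fold change of -0.34 ± 0.70. Cxcl11, counted here as a ligand but annotated in GENCODE as a polymorphic pseudogene, was at or below 0.621 CPM in every library.

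The interferon-stimulated gene list (Ifit1, Isg15, Mx1 and others, 20 genes) summed to 429, 1693 and 865 CPM in the knockout and 1751, 747 and 761 CPM in the wild type. Cxcl10 was likewise highest in wild-type replicate 1 and lowest in knockout replicate 1, the extremes of this sum, while Cxcl9 shared the lowest library only. The Cxcl10 promoter is shown for its match to an interferon-response motif (TTTC, any 2 bases, then TTTC, on either strand, in capitals), which 978 of 32851 promoters (2.98%) and 3 of 53 member promoters (Ccl19, Cxcl10 and Cxcl14) hold.
Cxcl10, chr5:92348890-92349139, minus strand: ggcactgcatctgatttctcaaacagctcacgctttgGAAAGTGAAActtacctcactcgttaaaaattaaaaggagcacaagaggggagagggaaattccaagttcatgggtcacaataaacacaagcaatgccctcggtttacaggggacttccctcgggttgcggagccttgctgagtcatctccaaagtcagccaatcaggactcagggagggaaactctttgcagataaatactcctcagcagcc
The match begins 213 bases before the start. Cxcr3 was low, at 0.335 to 1.14 CPM, with a log2 fold change of 0.39 ± 0.56, and T cell markers (Cd3e, Cd8a and others) summed to 17.9, 27.3 and 32.4 CPM in the knockout and 18.8, 13.0 and 25.4 CPM in the wild type.

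**Figure D3:**
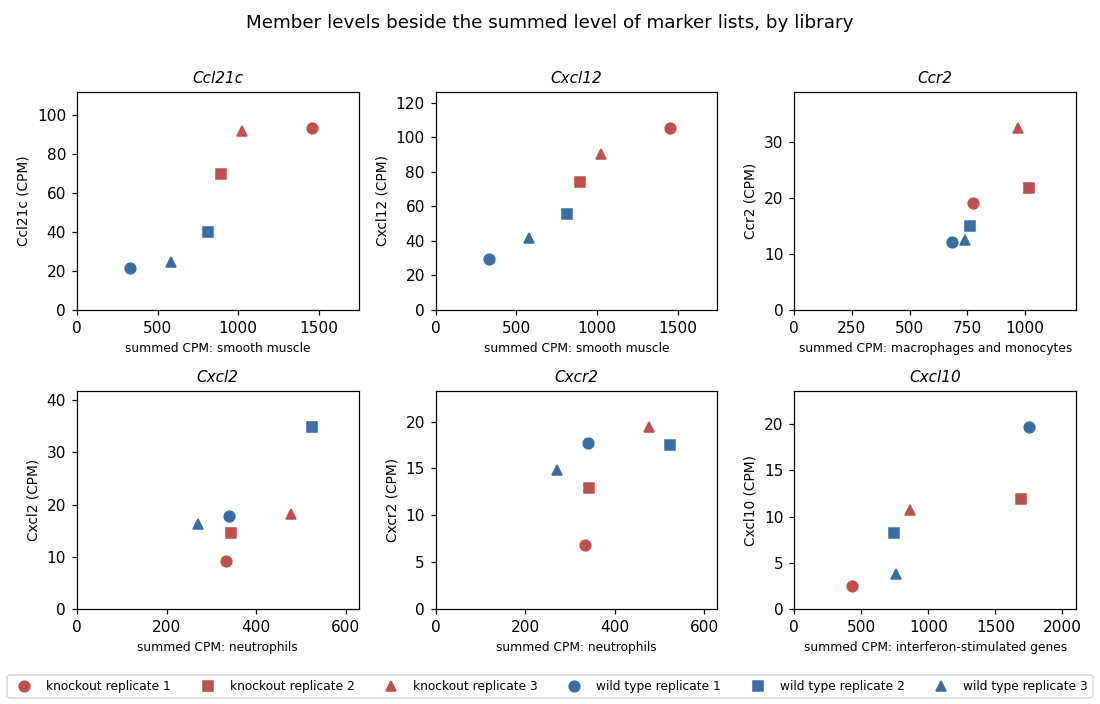
Each panel plots the CPM of 1 member (vertical axis) against the summed CPM of a marker list (horizontal axis) in the 6 libraries; red is knockout, blue is wild type, and the shape gives the replicate number. Ccl21c and Cxcl12 stand in the order of the smooth muscle sum, Cxcl10 is highest and lowest where the interferon-stimulated sum is, and Cxcr2 stands in another order than the neutrophil sum.

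Monocyte-attracting ligands (Ccl2, Ccl7, Ccl8 and Ccl12, the MCP group) bind Ccr2, which brings monocytes from blood into tissue. Of the 4 ligands, Ccl8 alone had an unadjusted p under 0.05. Ccl8 gave 4.07, 7.41 and 8.79 CPM in knockout replicates 1 to 3 and 2.11, 2.88 and 4.78 CPM in wild-type replicates 1 to 3. Knockout replicate 1 lay below wild-type replicate 3, and the log2 fold change was 1.05 ± 0.41 (95% interval 0.10 to 2.01, adjusted p = 0.435 by edgeR). Ccl2 gave 4.27, 8.35 and 11.9 CPM in the knockout and 10.6, 11.8 and 4.08 CPM in the wild type, with a log2 fold change of -0.11 ± 0.48, and Ccl7 ranged over 3.67 to 14.1 CPM with 0.14 ± 0.49. Ccl12 gave 2.58, 3.79 and 3.10 CPM in the knockout and 3.52, 2.95 and 0.593 CPM in the wild type, lowest in wild-type replicate 3, with a log2 fold change of 0.42 ± 0.59.

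Ccr2 itself separated the groups more clearly than its ligands. It was measured at 19.2, 21.9 and 32.5 CPM in knockout replicates 1 to 3 and 12.1, 15.0 and 12.5 CPM in wild-type replicates 1 to 3, with means of 24.5 ± 7.03 and 13.2 ± 1.60 CPM (SD, n = 3 each) and no overlap. The log2 fold change was 0.89 ± 0.22 (95% interval 0.37 to 1.41), which is 1.86-fold, with an adjusted p of 0.334 by edgeR and 0.0238 by DESeq2. The macrophage and monocyte list (Csf1r, Adgre1, C1qa and others, 13 genes) summed to 773, 1018 and 969 CPM in the knockout. It summed to 682, 762 and 738 CPM in the wild type, also without overlap. Lyz2 held 45.5% of this sum. Without Lyz2 the list gave 407, 568 and 518 CPM in the knockout and 392, 406 and 401 CPM in the wild type, so the groups nearly touched. Of the 13 genes, 11 were above 0 (against 47.9% of all genes). At an unadjusted p under 0.05, 7 were higher (against 6.63%) and 0 lower (against 4.12%). The part of these cells in the Ccr2 difference was not tested.

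The inflammatory CC ligands that bind Ccr1 and related receptors (Ccl3, Ccl5, Ccl6 and Ccl9) had no common direction: 3 of 4 had higher means in the knockout, and no unadjusted p was under 0.05. Ccl6, a myeloid chemokine and the member with the most reads, gave 213, 136 and 174 CPM in the knockout and 54.7, 187 and 121 CPM in the wild type. Its lowest value by far was in wild-type replicate 1, and the log2 fold change was 0.53 ± 0.40. Ccl3, a macrophage product, was lower on average in the knockout, 0.546, 1.43 and 1.81 CPM in the knockout and 1.91, 3.66 and 1.41 CPM in the wild type, with a log2 fold change of -0.88 ± 0.55 and overlapping groups. Ccl9 had a log2 fold change of 0.11 and Ccl5 one of 0.63 from 4 to 15 reads a library. Ccl4 was not tested and had 1, 7 and 20 reads in the knockout and 20, 11 and 5 in the wild type. Ccr1 gave 25.8, 34.6 and 38.4 CPM in the knockout and 31.4, 35.6 and 24.5 CPM in the wild type. This receptor of myeloid cells varied little, with overlapping groups and a log2 fold change of 0.11 ± 0.20.

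Eotaxins attract eosinophils through Ccr3. Ccl11 gave 26.0, 28.8 and 40.3 CPM in the knockout and 15.0, 40.1 and 19.1 CPM in the wild type, where wild-type replicate 2 came close to the highest knockout library, and its log2 fold change was 0.36 ± 0.37. Ccl24 ranged over 0.576 to 1.91 CPM with 0.41 ± 0.46, and Ccl26 was listed at 0 in every library. Ccr3 was low, 0.992, 0.879 and 1.65 CPM in knockout replicates 1 to 3 and 0.0671, 0.237 and 0.741 CPM in wild-type replicates 1 to 3. Its groups did not overlap, and the log2 fold change of 1.76 ± 0.77 had an adjusted p of 0.474 by edgeR and rests on 20, 16 and 32 reads in the knockout and 2, 7 and 20 in the wild type. It moved to 2.91 without wild-type replicate 3 and to 1.26 without wild-type replicate 1. The eosinophil list (Siglecf, Epx and others, 6 genes) was also low, at 6.94, 6.59 and 9.77 CPM in the knockout and 5.94, 6.97 and 7.12 CPM in the wild type. Il5ra held 52.4% of this sum, with a log2 fold change of -0.20. Without it the list gave 3.72, 4.01 and 5.02 CPM in the knockout and 2.52, 2.95 and 2.41 CPM in the wild type, without overlap. Of the 4 tested genes, 2 had values above 0 and 2 below. The part of eosinophils in the Ccr3 difference was not tested.

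Ligands of Ccr4 and Ccr8, which guide regulatory and type 2 T cells, did not differ beyond their spread. Ccl22 gave 2.63, 5.99 and 4.45 CPM in the knockout and 3.62, 4.30 and 7.23 CPM in the wild type (log2 fold change -0.21 ± 0.39), and Ccl17 ranged over 0.0992 to 0.569 CPM (log2 fold change 0.03 ± 0.66). Both changed sign in some alternative analyses. Ccr4 gave 1.93, 1.26 and 1.45 CPM in the knockout and 0.537, 0.440 and 1.41 CPM in the wild type, with wild-type replicate 3 inside the knockout range and a log2 fold change of 0.96 ± 0.53. Ccr8 was too low to test, with 0, 3 and 7 reads in the knockout and 0, 9 and 13 in the wild type, and its ligand Ccl1 had at most 2 reads a library.

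The list of mucosal epithelial ligands, in which Ccl27a and Ccl27b were also counted, had 5 of 6 values above 0 (against 47.9% of all genes). Its median log2 fold change was 0.53. Ccl28, the epithelial ligand for Ccr10 on antibody-secreting cells, was measured at 121, 106 and 163 CPM in knockout replicates 1 to 3 and 29.8, 92.6 and 90.8 CPM in wild-type replicates 1 to 3. No wild-type library reached a knockout library, but wild-type replicate 1 was far below the other wild-type libraries. The log2 fold change was 0.87 ± 0.41 (95% interval -0.08 to 1.82, adjusted p = 0.494 by edgeR), and 0.50 without that library. Cxcl14, an epithelial and fibroblast chemokine, gave 38.1, 82.3 and 71.3 CPM in the knockout and 38.7, 49.7 and 37.8 CPM in the wild type. Knockout replicates 2 and 3 were the highest and knockout replicate 1 lay among the wild type, with a log2 fold change of 0.60 ± 0.28.

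The other epithelial ligands were lower or level. Ccl20, the Ccr6 ligand of the epithelium over lymphoid follicles, gave 0.248, 2.03 and 3.26 CPM in the knockout and 0.973, 1.22 and 1.82 CPM in the wild type, so the knockout held both the lowest and the highest value (log2 fold change 0.46 ± 0.77). Ccl25, the Ccr9 ligand of gut-homing T cells, had a log2 fold change of 0.09 ± 0.30 at 2.11 to 3.47 CPM. Its exons overlap those of Elavl1. Ccl27a ranged over 8.57 to 12.1 CPM (log2 fold change -0.14 ± 0.18), and its exons overlap those of Il11ra1, so reads of the pair may not be separated. Ccl27b shares its counts with another row and had a log2 fold change of 1.16 ± 0.58 at 0.339 to 2.20 CPM.

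The receptors for these ligands were low. Ccr10 gave 0.794, 1.15 and 2.38 CPM in the knockout and 0.872, 0.305 and 0.816 CPM in the wild type, with the highest value in knockout replicate 3 and a log2 fold change of 1.11 ± 0.59. Ccr6 gave 1.19, 1.98 and 3.72 CPM in the knockout and 1.44, 1.05 and 2.56 CPM in the wild type and a log2 fold change of 0.45 ± 0.53. Ccr9 ranged over 0.609 to 2.07 CPM with 0.49 ± 0.53. Neither separated the groups. The plasma cell list (Jchain, Mzb1 and others, 8 genes) summed to 1522, 2207 and 3814 CPM in the knockout and 864, 1173 and 1260.4 CPM in the wild type, without overlap and with knockout replicate 3 highest, as for Ccr10 and Ccl28. Jchain held 61% of this sum, and the other 7 genes summed to 662, 706 and 837 CPM in the knockout and 677, 656 and 689.7 CPM in the wild type, where the groups overlapped. Of these 7, Sdc1 had a mean of 288 CPM and a log2 fold change of -0.08. Of the full 8 genes, 7 had values above 0, with a list median of 0.90. At an unadjusted p under 0.05, 3 were higher in the knockout and 0 lower, against 6.63% and 4.12% of all genes. Without overlap, 3 were higher and 0 lower, against 9.43% and 8.47%. The mature colonocyte list (Car1, Aqp8 and others) summed to 705, 602 and 873 CPM in the knockout and 189, 376 and 399.9 CPM in the wild type, without overlap and lowest in wild-type replicate 1, as for Ccl28. The part of either cell type in the Ccl28 difference was not tested.

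Cx3cl1, called fractalkine, is a ligand held on the membrane of epithelium and endothelium that binds Cx3cr1 on resident macrophages (chr8:94772009-94782427, plus strand). It was measured at 79.9, 65.2 and 70.1 CPM in knockout replicates 1 to 3 and 38.6, 55.3 and 48.2 CPM in wild-type replicates 1 to 3. All knockout libraries lay above all wild-type libraries, with means of 71.7 ± 7.50 and 47.4 ± 8.40 CPM (SD, n = 3 each). The log2 fold change was 0.60 ± 0.15 (95% interval 0.24 to 0.96), which is 1.51-fold, with an adjusted p of 0.338 by edgeR and 0.0446 by DESeq2. Its receptor Cx3cr1 gave 28.8, 37.4 and 29.3 CPM in the knockout and 28.8, 28.3 and 25.0 CPM in the wild type, an even level in all but knockout replicate 2, with a log2 fold change of 0.22 ± 0.14.

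Cxcl16, the other membrane-held chemokine, was level at 29.6, 41.7 and 36.5 CPM in the knockout and 40.7, 29.2 and 34.1 CPM in the wild type (log2 fold change 0.05 ± 0.17). Its exons overlap those of Zmynd15. Cxcr6, its receptor on T and innate lymphoid cells, gave 2.13, 4.23 and 6.77 CPM in the knockout and 2.72, 1.49 and 2.26 CPM in the wild type. Knockout replicates 2 and 3 were the highest libraries and knockout replicate 1 lay within the wild type, with a log2 fold change of 1.02 ± 0.46 and an adjusted p of 0.485 by edgeR. Xcl1, a lymphocyte product, was too low to test, with 6, 7 and 2 reads in the knockout and 5, 2 and 1 in the wild type. Xcr1, its receptor on cross-presenting dendritic cells, had a log2 fold change of 0.25 ± 0.51 at 0.595 to 1.76 CPM.

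Signalling receptors as a group leaned to the knockout, with 14 of 16 above 0 and a median log2 fold change of 0.42. Of all genes tested, 47.9% were above 0. The lean held for 9 of 9 CC receptors, from 0.11 for Ccr1 to 1.76 for Ccr3, and 3 of 5 CXC receptors. Several of these directions rested on single libraries. On leaving out 1 library, the lowest values were -0.024 for Ccr1, -0.089 for Ccr6 and -0.18 for Ccr7. They were -0.088 for Cxcr3 and -0.38 for Xcr1. Knockout replicate 3 was the highest library for 11 of the 16 receptors.

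Atypical receptors, which bind chemokines and internalise or carry them, were all above 0 without an unadjusted p under 0.05. Ackr1, which carries chemokines across venules, gave 3.17, 4.50 and 6.41 CPM in the knockout and 1.68, 4.54 and 4.00 CPM in the wild type, with a log2 fold change of 0.46 ± 0.44. Ackr4, the scavenger of Ccl19, Ccl21 and Ccl25, gave 4.36, 2.36 and 3.05 CPM in the knockout and 1.95, 1.66 and 2.78 CPM in the wild type and a log2 fold change of 0.62 ± 0.35. Its highest value, in knockout replicate 1, was in the library where Ccl21a, Ccl21b and Ccl21c were also highest. Exons of Ackr4 overlap those of Acad11, and exons of Ackr1 overlap those of Cadm3 on the same strand. Ackr2, the scavenger of inflammatory CC ligands, had a log2 fold change of 0.52 ± 0.51.

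Levels can be compared between genes after division by exon length. Ccl21b, Ccl21c and Ccl27b were left out of this order, since their copies are annotated with coding bases only or not by their own name. On the 0.402 kb of Gm10591, Ccl21c would stand at a mean of 142 CPM per kb, and on the 0.87 kb of Ccl21a at 65.5 CPM per kb, so it may rank at or near the top. Ccl21b would stand at 35.5 or 16.4 CPM per kb on the same lengths. How reads were divided between these 2 rows is not known, so the values do not rank 1 copy against the other. Among the other members, Ccl6 led with a mean of 82.2 CPM per kb (30.5 to 119 over the 6 libraries), followed by Cxcl5 with 59.4 CPM per kb (32.3 to 91.0). The ranges of these 2 overlap, so their order is not fixed. Cxcl14, Ccl21a, Ccl11, Cxcl1 and Ccl28 followed at 20.7 to 29.0 CPM per kb, again with overlapping ranges. Cx3cl1 stood at 15.2 CPM per kb, Cxcl12 at 8.08, and the highest receptor, Ccr1, at 11.2. In reads, the 5 rows Ccl6, Cxcl5, Ccl28, Cxcl12 and Cx3cl1 held 46.1% of the family's total.

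Members that lie together in the genome shared a direction in some clusters and not in others. Besides the chromosome 5 cluster of ELR ligands (0 of 4 above 0), the Cxcl9, Cxcl10 and Cxcl11 cluster (44.1 kb of chromosome 5) had 2 of 3 above 0. The receptor cluster on chromosome 9 had 7 of 7 above 0, with a median of 0.49. The chromosome 4 cluster had 3 of 4 tested members above 0, with a median of 1.24, and 2 of the 4 are the Ccl21a and Ccl21b copies. The MCP and eotaxin cluster on chromosome 11 (chr11:82035571-82305690) had 4 of 5 tested members above 0, with a median of 0.36. The neighbouring Ccl3 to Ccl9 cluster (chr11:83525778-83664683) had 3 of 4 above 0, with a median of 0.32. On chromosome 8, Ccl22, Cx3cl1 and Ccl17 lie within 66.4 kb, and their log2 fold changes were -0.21, 0.60 and 0.03.

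A pair of libraries stood at the ends for many members. Knockout replicate 3 held the highest value for 23 of 53 tested members (43.4%), against 20.6% of all genes. Wild-type replicate 1 held the lowest value for 23 of 53 (43.4%), against 24.6% of all genes. The summed level of all members was 1134, 1137 and 1295 CPM in the knockout and 721, 1170 and 851 CPM in the wild type, so the total did not separate the groups.

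**Figure D4:**
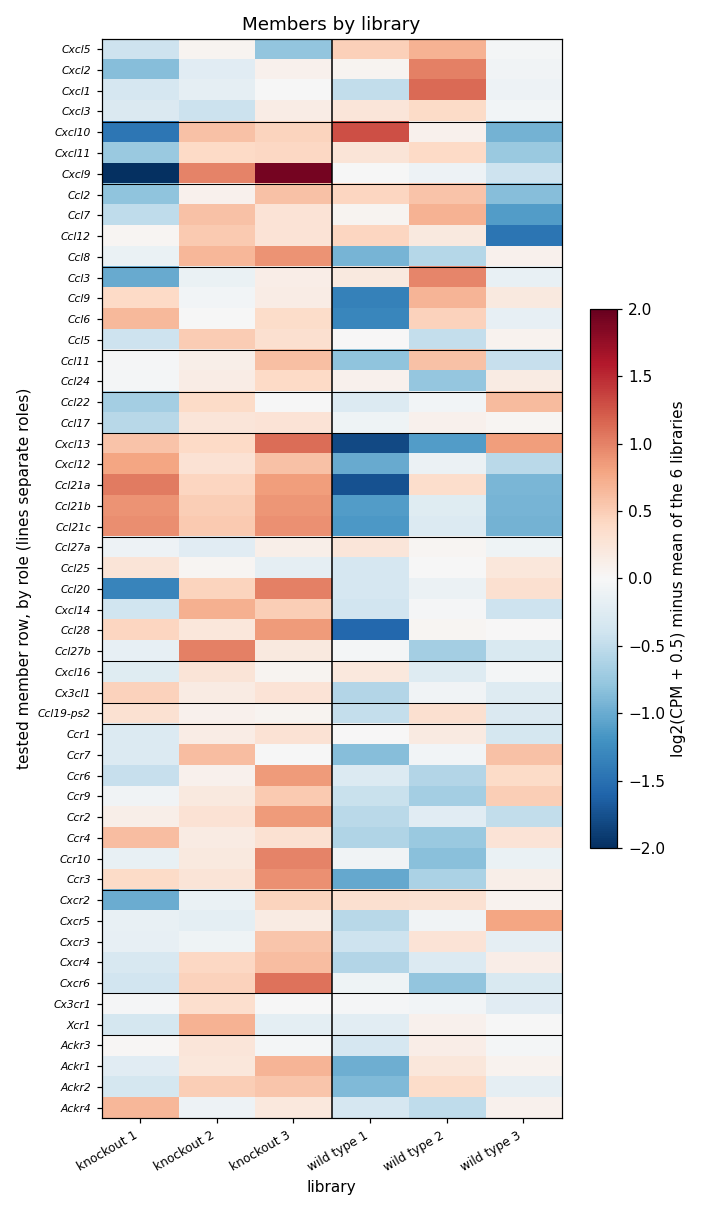
Each of 52 rows is a tested member, grouped by role, and each column a library; colour gives log2(CPM + 0.5) minus the member's mean over the 6 libraries, from blue (lower) to red (higher). Ccl21 and Cxcl12 are red in the knockout columns, Cxcl1, Cxcl2 and Cxcl5 are reddest in wild type 2, and Cxcl9 and Cxcl10 vary within each group.

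Genes around the chemokines were described from lists written from general knowledge, and none passed an adjusted p of 0.05 by edgeR. Of 5 family genes outside the symbol rule, 1 (20%, against 6.63% of all genes) had higher values at an unadjusted p under 0.05, the platelet chemokine Pf4. Pf4 gave 6.70, 5.88 and 6.31 CPM in the knockout and 3.45, 4.77 and 3.93 CPM in the wild type, without overlap, and a log2 fold change of 0.63 ± 0.22. The others, Ppbp, Ccrl2, Mif and Pitpnm3, had log2 fold changes of 0.10, 0.20, -0.28 and 0.73. Of 36 tested genes of receptor signalling (G proteins, arrestins, kinases), 4 (11.1%, against 6.63% of all genes) had higher values in the knockout at an unadjusted p under 0.05 and 0 had lower ones (against 4.12%), with a median of 0.06. Without overlap, 4 were higher (11.1%, against 9.43%) and 3 were lower (8.33%, against 8.47%). The 4 with the smallest p were Arrb1, an arrestin, at 0.57, Pik3r5, a phosphoinositide kinase subunit, at 0.86, Gng2, a G protein subunit, at 0.35, and Rgs1, which shortens G protein signals, at 0.52.

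The upstream inducers of chemokines (19 tested genes of NF-kB, interferon and cytokine signalling) had 0 members with an unadjusted p under 0.05, 7 above 0 and 12 below, with a median of -0.05. The smallest p-values in this list were those of the transcription factors Irf8 (0.33) and Rela (-0.14) and the cytokines Il6 (-0.81) and Csf2 (-0.63). Of 16 tested genes for other chemoattractants, 3 (18.8%, against 6.63% of all genes) had higher values at an unadjusted p under 0.05 and 0 had lower ones (against 4.12%): complement C3 at 0.81, chemerin (Rarres2) at 0.53 and the C5a receptor C5ar1 at 0.44. Ch25h, which makes an oxysterol precursor, had 0.81. Of 11 tested genes that cleave, present or remove chemokines, 1 (9.09%, near the 6.63% of all genes) had higher values at that threshold, the protease Mmp2 at 0.56. The sheddases Adam10 and Adam17, which cut Cx3cl1 and Cxcl16 from the membrane, had -0.25 and -0.14, and the proteoglycan Sdc4 had 0.20. The list medians of 0.30 for other chemoattractants and -0.08 for cleavage stand beside -0.01 for all genes and 0.42 for the chemokine family.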

How the data were processed

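Ribosome-depleted total RNA of 3 knockout and 3 wild-type colon tumour samples had been sequenced. The authors deposited whole-number counts per gene symbol for each sample. Per the submitters' processing notes, mm10, TopHat2, edgeR and limma were used. For the read counter, its strand setting, its rule for multi-mapping reads and the annotation, the entry is "not given in the sources used here". That leaves the Ccl21 copies and the 11 members with exons overlapping another gene uncertain. These 11 are Ackr1, Ackr4, Ccl25, Ccl27a, Ccr9, Cx3cr1, Cxcl10, Cxcl11, Cxcl16, Cxcr5 and Xcl1.

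From these counts, edgeR 4.0.16 in R 4.3.3 (filterByExpr with the group, TMM factors 0.977 to 1.02, quasi-likelihood test, group as the only term, all 6 libraries) tested 16281 genes, two-sided, with Benjamini-Hochberg adjustment and a threshold of 0.05. Total counts were 17937821 to 19987295 in the knockout and 27085599 to 29742757 in the wild type. Samples were grouped by their genotype labels. Replicates differed by more than counting noise (chi-square per degree of freedom 22 to 109), so each counted once. An SE is the log2 fold change divided by the square root of F.

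The members and lists were chosen with earlier results of these data known. Named members are those with a mean of at least 1 CPM and either no overlap between groups or an unadjusted p under 0.05, plus the 2 tested members with the smallest p in each role and, for pathway lists, up to 4 genes. Further members are described by their values and role. Of the 53 tested members, 1 counts in the totals and is not reported here by itself.

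Alternatives were DESeq2 1.42.0, limma-voom 3.58.1 with and without sample weights, 3 scalings, 2 filters, a replicate block and the omission of single libraries. Promoters came from RefSeq (GRCm38.p6) and positions from GENCODE M21 (GRCm38, the assembly of mm10), which matched 61 members.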

Additional observations from a re-analysis of the deposited data

How the results depend on the processing

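No setting in edgeR or limma called a member. DESeq2 called 334 of 20767 genes, of which 241 were higher and 93 lower, and 5 of 61 members, all higher (Ccl21b, Ccl21c, Cxcl12, Ccr2 and Cx3cl1), whereas edgeR called 0 of both; the cause was not tested. limma-voom with sample weights called 1 gene. Leaving out a library gave 0 to 1 called genes (1 without wild-type replicate 3), 0 called members, 7 to 12 members with an unadjusted p under 0.05 and a member median of 0.24 to 0.53. Of 455 values of the 29 named members under alternatives, 435 kept their direction and side of the threshold, 5 passed it and 15 changed sign. Ccl17 was -0.25 with limma-voom, -0.14 with the replicate block and -0.30 to 0.50 without single libraries. With sample weights Ccl22 was 0.037 and Cxcl10 0.32, and without single libraries they were -0.51 to 0.13 and -0.73 to 0.48. Without single libraries Cxcl16 was -0.070 to 0.18, Xcr1 -0.38 to 0.53 and Ccl12 -0.036 to 0.83. Outside the naming rule, Cxcl1, Ccl2, Ccl7, Ccl9, Ccl20, Ccl25, Cxcl11, Ccr1, Ccr6, Ccr7, Cxcr3 and Cxcr5 also changed sign without single libraries. The replicate block, fitted because the labels number both groups 1 to 3, called 0 genes and 0 members, with 13 members at an unadjusted p under 0.05 and a median of 0.47. The correlations of same-numbered samples, taken on deviations from each group's mean, were -0.177, -0.212 and -0.0851. They gave no sign of pairing by number, but with 3 libraries a group they cannot exclude it. Summing the Ccl21 rows was added after the data were seen. Depth limits Ccr3, Ccl5, Cxcl11 and the 8 untested members with reads.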
